A study of Mus musculus with 18 samples.

Results

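Serpins are a family of proteins that circulate at high levels in plasma and are made mostly by hepatocytes. An inhibitory serpin offers an exposed stretch near its C terminus, the reactive centre loop, to a protease as bait. When the protease cuts the loop, the serpin changes shape and traps the enzyme. The residues of the loop set which proteases are caught, and mice carry several copies of genes that are single in humans. Serpina1a to Serpina1e are the mouse copies of the gene for alpha-1 antitrypsin, the main plasma inhibitor of neutrophil elastase. Serpina3k, Serpina3m and Serpina3n belong to the expanded mouse group that corresponds to human alpha-1 antichymotrypsin. Serpina6 encodes corticosteroid-binding globulin and Serpina7 thyroxine-binding globulin, 2 relatives that carry hormones in plasma and do not inhibit proteases.

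These 10 genes, out of 54532 listed in each deposited table, were followed across the 4 groups of the study. They were taken by name, and they were selected on their FPKM differences between B2D and Ctrl livers, which had already been seen. The values of that comparison are therefore given as a description with no test. The livers came from wild-type male C57BL/6J mice, with 1 RNA-seq library per mouse, and diets were begun at 4 wk of age. Of the mice without drug, 5 had control diet (Ctrl) and 5 had vitamin B2-deficient diet (B2D) for 1 month. Of the mice given the PPARα agonist fenofibrate (FF), 4 had control diet (Ctrl+FF) and 4 had deficient diet (B2D+FF) for 9 wk, with daily gavage in weeks 7 to 9. The fenofibrate-treated mice had a last dose 2 hr before measurements. Every mouse was fasted overnight. No 9 wk group without fenofibrate was analysed here, so diet time, drug and table cannot be told apart between the 2 pairs of groups, and tests were made only within a pair. Mice are numbered within their group. Reads assigned to genes ranged from 15320729 to 21898502 per library. All 10 members passed the filter on low values, a mean of at least 0.5 FPKM (fragments per kilobase, a level scaled to gene length and to a library size), in both tables.

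The samples carried the markers of the labelled tissue. The 7 hepatocyte markers found in the table summed to between 32265 and 46887 FPKM without fenofibrate and to between 19133 and 24694 FPKM with it. All 5 listed neutrophil markers together, the cells whose elastase alpha-1 antitrypsin inhibits, came to 0.482 to 1.67 FPKM in Ctrl, 1.86 to 5.55 in B2D, 1.87 to 3.56 in Ctrl+FF and 1.83 to 11.1 in B2D+FF. Ly6g was at 0 in Ctrl, B2D and B2D+FF, and Mpo in B2D, Ctrl+FF and B2D+FF. The Kupffer cell and macrophage markers summed to 38.4 to 61.4 FPKM without fenofibrate and 24.4 to 67.4 FPKM with it. The stellate cell and fibroblast markers summed to 15.4 to 45.6 FPKM over all libraries, the endothelial ones to 22.0 to 35.0, the cholangiocyte ones to 0.865 to 2.86 and the T and B cell ones to 0.227 to 2.48. Of single markers, limma called Clec4f (Kupffer cells) lower in B2D, at 28.7 and 20.4 FPKM in Ctrl and B2D, and Pck1 (hepatocytes) and Lyve1 (endothelium) higher in B2D+FF, at 542 and 975 FPKM and at 5.38 and 10.1 FPKM. The call of Clec4f was lost without any one library other than Ctrl 3, that of Pck1 without Ctrl+FF 1, Ctrl+FF 2, Ctrl+FF 3, B2D+FF 2, B2D+FF 3 or B2D+FF 4, and that of Lyve1 without Ctrl+FF 1, Ctrl+FF 2, Ctrl+FF 3 or B2D+FF 4. The part of other cell types in the serpin levels was not tested. In whole liver, fewer cells of a type and less RNA per cell cannot be told apart.

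Of the 10 genes, 9 lie on chromosome 12 and Serpina7 lies on the X chromosome (chrX:139079257-139085236, minus strand, GRCm38). On the minus strand follow Serpina6 (chr12:103646630-103657212), Serpina1b (chr12:103728156-103830373), Serpina1d (chr12:103763594-103773592, inside the annotated span of Serpina1b), Serpina1a (chr12:103853589-103863562), Serpina1c (chr12:103894926-103904887) and Serpina1e (chr12:103946931-103958975). On the plus strand follow Serpina3k (chr12:104338486-104346144), Serpina3m (chr12:104338486-104394257) and Serpina3n (chr12:104406729-104414329). The annotation gives Serpina3k and Serpina3m a shared first exon of 60 bases. Each of the 5 Serpina1 copies has an open reading frame of 413 codons, and any pair of them was identical at 96.3% to 98.5% of coding bases, with Serpina1a and Serpina1c the closest pair. Serpina3k and Serpina3m shared 90.95% of aligned coding bases, and Serpina3n shared 82.7% with Serpina3k and 85.2% with Serpina3m. Serpina6 and Serpina7 shared 49.45% with each other.

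Within the stretch that meets the protease, pairs of Serpina1 copies were identical at 85.2% to 93.8% of bases, a lower range than over the whole coding sequence. The bases that code for the reactive centre loop, all in exon 5, are shown because this stretch tells the products apart. For Serpina1 the 5 stretches have 81 bases each, and 18 of the 81 alignment columns differ between copies. Capitals mark those columns. The positions on the minus strand of GRCm38 are chr12:103853750-103853830 for Serpina1a, chr12:103728317-103728397 for Serpina1b, chr12:103895087-103895167 for Serpina1c, chr12:103763755-103763835 for Serpina1d and chr12:103947093-103947173 for Serpina1e.
Serpina1a: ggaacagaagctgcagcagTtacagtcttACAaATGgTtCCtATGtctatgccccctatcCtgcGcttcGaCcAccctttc
Serpina1b: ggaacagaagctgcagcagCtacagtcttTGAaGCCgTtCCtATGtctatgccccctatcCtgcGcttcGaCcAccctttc
Serpina1c: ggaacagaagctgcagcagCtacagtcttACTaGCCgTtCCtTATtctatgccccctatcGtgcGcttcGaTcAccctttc
Serpina1d: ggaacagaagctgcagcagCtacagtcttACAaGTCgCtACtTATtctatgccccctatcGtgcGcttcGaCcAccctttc
Serpina1e: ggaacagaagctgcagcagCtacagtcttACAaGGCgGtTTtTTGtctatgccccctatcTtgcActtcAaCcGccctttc

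Serpina1e stood farthest from the rest in this stretch, with 10 to 12 differing columns against each of the other copies. The closest pair in the loop was Serpina1c and Serpina1d, with 5. In the Serpina3 genes the same stretch is more varied, and 42 of 90 aligned columns differ. The Serpina3k stretch has 84 bases (chr12:104345269-104345352), and those of Serpina3m (chr12:104393769-104393858) and Serpina3n (chr12:104413448-104413537) have 90, all on the plus strand.
Serpina3k: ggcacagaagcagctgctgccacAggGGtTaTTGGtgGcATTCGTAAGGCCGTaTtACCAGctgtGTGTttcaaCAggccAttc
Serpina3m: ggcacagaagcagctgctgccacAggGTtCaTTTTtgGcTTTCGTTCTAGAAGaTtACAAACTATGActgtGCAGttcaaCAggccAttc
Serpina3n: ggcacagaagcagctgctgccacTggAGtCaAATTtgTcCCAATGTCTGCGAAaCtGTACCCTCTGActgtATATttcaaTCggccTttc

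This likeness bears on the counting. Of all stretches of 100 bases in the reference transcript of Serpina1e, 81.8% occurred in no transcript of another gene. The share was 73.6% for Serpina1b, 70.7% for Serpina1d, 39.0% for Serpina1a and 30.7% for Serpina1c, and 58% of the stretches of Serpina1a and of Serpina1c were common to both. Reads from these copies could be lost or split in counting, so their single values are uncertain, and the sum of the 5 is given beside them. The shares were 95.2% for Serpina3k, 93.9% for Serpina3m and 99.8% for Serpina3n, and every stretch of Serpina6 and Serpina7 was unique.

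Serpina3k was the most abundant serpin of the set in every group. In Ctrl livers Serpina3k had 6706 ± 1411 FPKM (mean ± SD, n = 5), the 10th highest level of all genes tested. The Serpina1 copies followed at 1734 ± 96.3 for Serpina1d, 1596 ± 43.7 for Serpina1b, 1279 ± 275 for Serpina1e, 857 ± 41.0 for Serpina1a and 604 ± 38.2 for Serpina1c. The ranges of Serpina1d and Serpina1b overlapped, as did those of Serpina1b and Serpina1e, while Serpina1a and Serpina1c stood apart from their neighbours. The authors computed FPKM over the union of annotated isoforms, which for 3 copies is longer than the reference transcript. The lengths are 2415 against 1394 bases for Serpina1b, 1832 against 1360 for Serpina1a and 1617 against 1295 for Serpina1e, so the order of the copies depends on the length used. Below the Serpina1 copies were Serpina3n at 249 ± 39.1 and Serpina3m at 199 ± 28.8, with overlapping ranges, then Serpina6 at 78.7 ± 30.7 and Serpina7 at 8.30 ± 3.17. Together the 10 genes took 2.54% ± 0.285 of all reads in Ctrl, of which Serpina3k alone made up 1.37% of all reads.

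The order of the copies differed between groups. Serpina1e was the fourth most abundant of the 10 in Ctrl and the eighth both in B2D and in Ctrl+FF, a control-diet group. In B2D+FF it had the lowest mean of the 10, with a range that overlapped that of Serpina7. Serpina3k, Serpina1b, Serpina1d and Serpina1a held the top 4 places in B2D, Ctrl+FF and B2D+FF. Between Serpina1d and Serpina1b the first place in Ctrl and B2D, with overlapping ranges, went to Serpina1d, and with fenofibrate Serpina1b lay above Serpina1d with no overlap. These places are by FPKM. By reads, which do not depend on gene length, the mean of Serpina1b was above that of Serpina1d in every group.

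**Figure D1:**
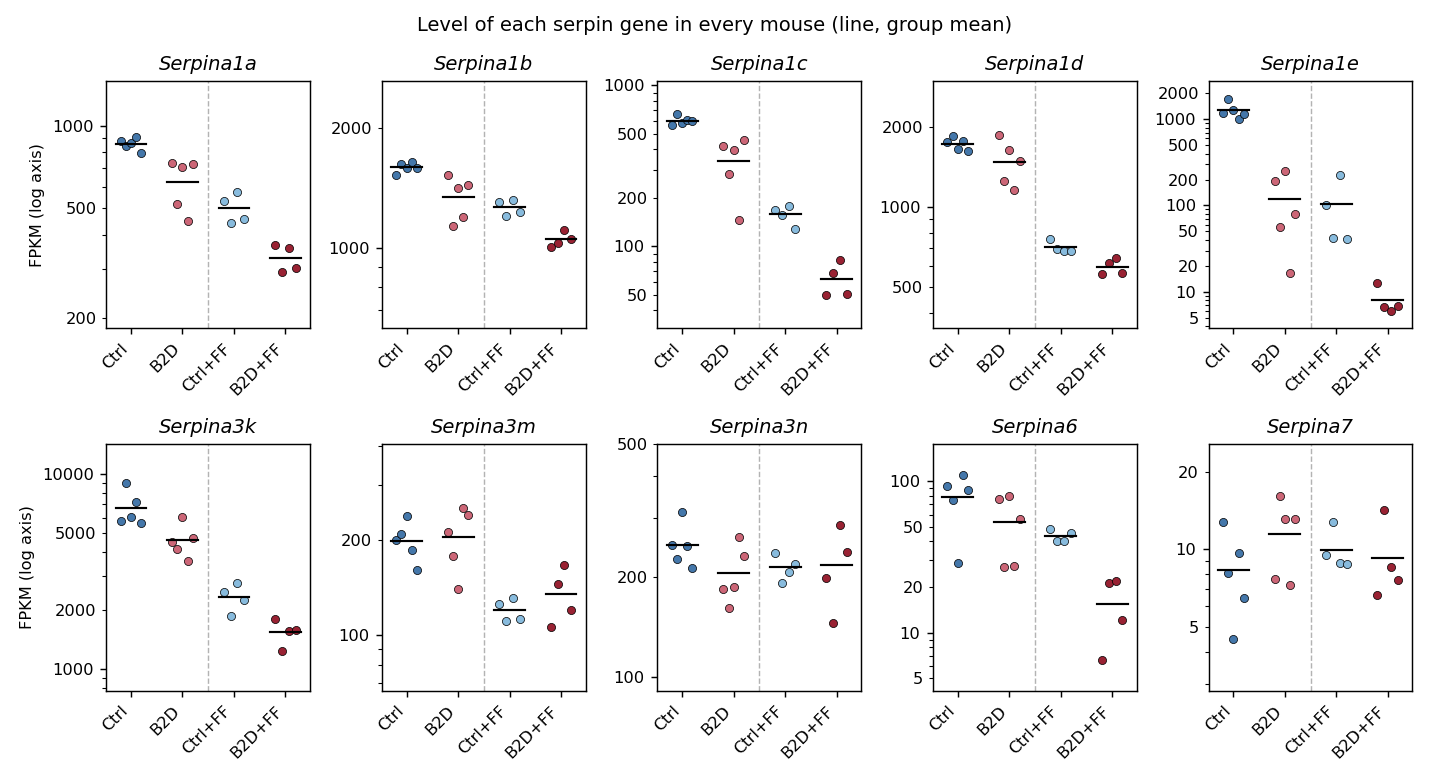
FPKM of each gene on a log axis, 1 point per mouse, with black lines at the group means and a dashed line between the 2 separately normalized tables. Serpina1e spans 1020 to 1737 FPKM in Ctrl and 6.04 to 12.7 in B2D+FF, while the groups of Serpina3m, Serpina3n and Serpina7 overlap in both pairs.

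Without fenofibrate, the Serpina1 copies were lower in B2D livers by unequal amounts. Serpina1e had 1186, 1737, 1299, 1020 and 1153 FPKM in Ctrl 1 to 5 and 195, 55.9, 250, 16.4 and 79.8 FPKM in B2D 1 to 5. No B2D mouse came near the Ctrl range, and the B2D mice differed among themselves by 15.2-fold, from B2D 4 at the bottom to B2D 3 at the top. The means of 1279 and 119 FPKM differed 10.7-fold, a difference of -3.92 on the log2(FPKM + 1) scale that all differences below use. This is the value that led to the choice of these genes, and only 2 of 11574 genes had a more negative one.

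Serpina1c had 564, 666, 585, 606 and 597 FPKM in Ctrl 1 to 5 and 421, 280, 395, 145 and 460 FPKM in B2D 1 to 5. Again no B2D mouse reached the lowest Ctrl mouse, and B2D 4 was the lowest. The difference of the log2 means was -0.93. Serpina1a ranged from 797 to 907 FPKM in Ctrl and from 449 to 730 FPKM in B2D, a difference of -0.48. Serpina1b ranged from 1530 to 1643 FPKM and from 1139 to 1523 FPKM, a difference of -0.26. Neither gene's groups overlapped. Serpina1d differed by -0.24 (-0.16 without B2D 4) and its groups overlapped, since B2D 1 at 1870 FPKM was above all Ctrl mice.

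Summed, the 5 copies had 5913, 6737, 5988, 5949 and 5763 FPKM in Ctrl 1 to 5 and 4738, 3249, 4413, 2965 and 4200 FPKM in B2D 1 to 5. The sum differed by -0.65 on the log2 scale, and the groups did not overlap. Of the fall of 2157 FPKM between the means, Serpina1e accounted for 53.8% and each of the other copies for 10.7% to 12.2%. These parts depend on the gene lengths used for FPKM. The sum of the other 4 copies without Serpina1e was 4791 ± 166 FPKM in Ctrl and 3794 ± 686 FPKM in B2D.

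The Serpina3 genes and the hormone carriers did not move as one. Serpina3k, a kallikrein-binding serpin, had 5743, 8973, 6005, 7185 and 5624 FPKM in Ctrl 1 to 5 and 4518, 4132, 6049, 3575 and 4721 FPKM in B2D 1 to 5. Only B2D 3 reached the Ctrl range, and the difference was -0.54. Serpina3n, which is induced in the acute phase response, differed by -0.29, and Serpina3m by 0.02, with overlapping groups in both. Serpina6 had 92.6, 75.0, 28.6, 110.0 and 87.3 FPKM in Ctrl 1 to 5 and 76.0, 27.2, 79.8, 27.4 and 56.2 FPKM in B2D 1 to 5. Ctrl 3 lay among the low B2D mice, and the groups overlapped. The difference of -0.57 was -0.90 without Ctrl 3, -0.37 without B2D 2 and -0.37 without B2D 4. Serpina7 ranged from 4.49 to 12.8 FPKM in Ctrl and from 7.26 to 16.2 FPKM in B2D, a difference of 0.44 that was 0.26 without Ctrl 3. In all, 4 of the 10 members had B2D values below all Ctrl values, where 2.89% of all 11574 genes did, and 8 of 10 differences were negative. The median difference was -0.39 over the members and 0.00 over all genes. Of the 849 genes with a mean of at least 50 FPKM, 566 had a negative difference, and their median was -0.11. Since this contrast chose the members, nothing is read from these counts.

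Fenofibrate-treated mice were other animals, and there the comparison was tested with limma, with p-values adjusted over all 11878 genes. Of the 10 members, 4 fell in B2D+FF against Ctrl+FF (Serpina1a, Serpina1c, Serpina1e and Serpina6) and none rose, where 2.21% of all genes fell and 2.24% rose. The choice of members used the other pair of groups, in which some of the same genes were already known to be low. In 7 members every B2D+FF mouse was below every Ctrl+FF mouse, against 6.44% of all genes. The median difference was -0.43 over the members and 0.01 over all genes.

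Serpina1e had 101, 42.0, 229 and 40.7 FPKM in Ctrl+FF 1 to 4 and 12.7, 6.57, 6.04 and 6.82 FPKM in B2D+FF 1 to 4. The groups did not overlap, although the Ctrl+FF mice themselves spread 5.62-fold. Behind the B2D+FF values stood 202 to 349 reads per library. Serpina1e fell by 3.21 on the log2 scale (SE 0.507, adjusted p = 0.0113). The ratio of the group means was 12.9.

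Serpina1c had 168, 156, 179 and 129 FPKM in Ctrl+FF 1 to 4 and 49.5, 67.7, 82.2 and 50.2 FPKM in B2D+FF 1 to 4. All B2D+FF mice were well below the Ctrl+FF range. Serpina1c fell by 1.35 (SE 0.178, adjusted p = 0.00527). The calls of Serpina1c and Serpina1e held in all 15 other fits, each of which changed 1 setting or left out 1 library.

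Serpina1a had 530, 443, 575 and 457 FPKM in Ctrl+FF 1 to 4 and 368, 293, 357 and 305 FPKM in B2D+FF 1 to 4. The groups stood apart. Serpina1a fell by 0.60 (SE 0.125, adjusted p = 0.0312). The call was lost without Ctrl+FF 1 (adjusted p = 0.104), Ctrl+FF 2 (0.0656), Ctrl+FF 3 (0.0750), B2D+FF 2 (0.0549) or B2D+FF 4 (0.0845), and when no filter on low values was used (0.0792).

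Serpina1b and Serpina1d did not pass the threshold. Serpina1b was 1268 ± 57.3 FPKM in Ctrl+FF and 1053 ± 45.6 FPKM in B2D+FF (SD, n = 4). Its difference was -0.27, with a 95% interval from -0.48 to -0.06 (limma adjusted p = 0.137). Serpina1d was 706 ± 36.6 and 595 ± 41.5 FPKM. Its difference was -0.25, with an interval from -0.46 to -0.03 (limma adjusted p = 0.181). In both genes the 4 B2D+FF mice nevertheless lay below all Ctrl+FF mice.

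The sum of the 5 copies was 2869, 2540, 2990 and 2546 FPKM in Ctrl+FF 1 to 4 and 1997, 2012, 2205 and 1982 FPKM in B2D+FF 1 to 4. The sums did not overlap, and their log2 difference was -0.41. Serpina1b, the most abundant copy in these mice, accounted for 31.3% of the fall of 687 FPKM, Serpina1a for 24.8%, Serpina1d for 16.1%, Serpina1c for 13.9% and Serpina1e for 13.8%. Here too the parts, and their order, depend on the gene lengths used for FPKM.

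**Figure D2:**
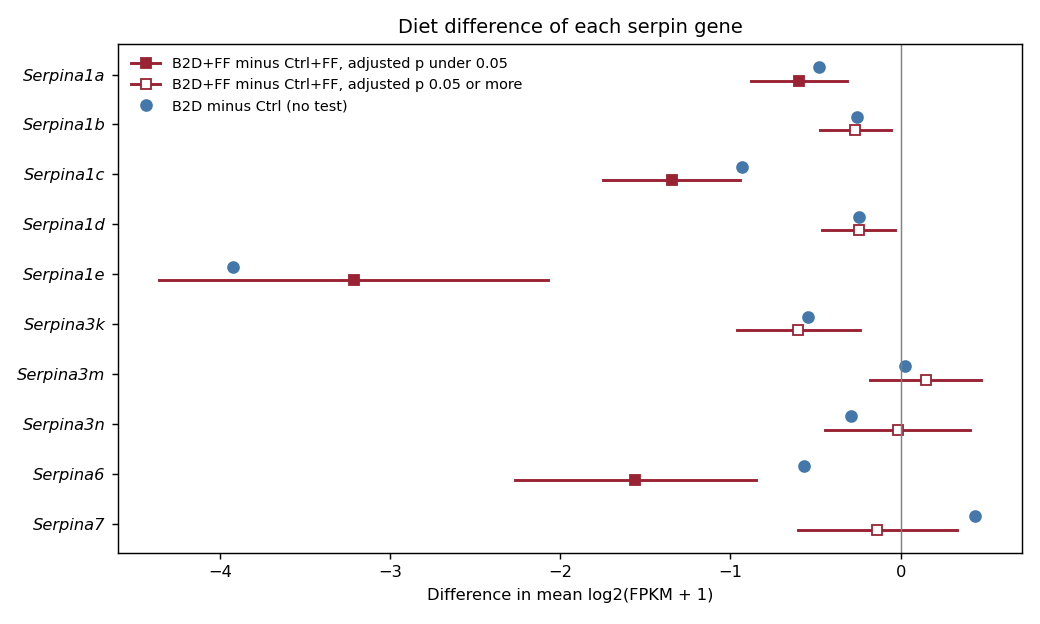
Difference in mean log2(FPKM + 1) between diets for each gene. Squares with lines are B2D+FF minus Ctrl+FF with the 95% interval, filled where the adjusted p was under 0.05, and circles are B2D minus Ctrl without a test. Serpina1e lies at -3.92 and -3.21, far to the left of the other members, and Serpina3m lies to the right of 0 in both.

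Serpina3k had 2482, 1880, 2775 and 2277 FPKM in Ctrl+FF 1 to 4 and 1816, 1237, 1566 and 1582 FPKM in B2D+FF 1 to 4. All B2D+FF mice were below all Ctrl+FF mice, by a small margin between B2D+FF 1 and Ctrl+FF 2. Its difference was -0.60 (SE 0.159), with a 95% interval from -0.96 to -0.24, and it did not pass the threshold (limma adjusted p = 0.0661). It did pass with a filter at a mean of 5 FPKM (adjusted p = 0.0394), after rescaling to one upper quartile (0.0491) and with limma voom on the recovered reads (0.0436). Its adjusted p ranged from 0.0394 to 0.219 over the 15 other fits. Serpina3m differed by 0.15, with an interval from -0.18 to 0.47, and Serpina3n by -0.02, with an interval from -0.44 to 0.41. B2D+FF 3 had the highest value of both genes among the B2D+FF mice, 167 FPKM of Serpina3m and 285 FPKM of Serpina3n.

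The hormone carriers differed from each other. Serpina6 had 48.0, 40.0, 40.2 and 45.4 FPKM in Ctrl+FF 1 to 4 and 6.60, 21.3, 22.0 and 12.1 FPKM in B2D+FF 1 to 4. The Ctrl+FF mice were close together, and the B2D+FF mice were all lower, B2D+FF 1 most of all. Serpina6 fell by 1.56 (SE 0.314, adjusted p = 0.0268). The call was lost without Ctrl+FF 1 (adjusted p = 0.0849), Ctrl+FF 2 (0.0750), Ctrl+FF 3 (0.0656), Ctrl+FF 4 (0.0574) or B2D+FF 4 (0.0737), and with no filter (0.0800). Serpina7 was 9.99 ± 1.89 FPKM in Ctrl+FF and 9.25 ± 3.40 FPKM in B2D+FF. Its difference was -0.14, with an interval from -0.61 to 0.33.

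The make-up of the Serpina1 sum shifted toward 2 copies. In Ctrl livers Serpina1e supplied 20.9% ± 3.17 of the summed FPKM, and in B2D livers 2.79% ± 2.06. Serpina1b supplied 26.4% ± 1.45 in Ctrl and 34.8% ± 3.36 in B2D, and Serpina1d 28.6% ± 1.09 and 38.0% ± 1.62. The share of Serpina1a was 14.2% ± 1.05 and 15.9% ± 0.817. In Ctrl+FF livers Serpina1e supplied 3.61% ± 2.84 of the sum and in B2D+FF livers 0.395% ± 0.163. Serpina1b took 46.5% ± 1.90 and 51.4% ± 1.34. As shares of reads, which do not depend on gene length, Serpina1b held 36.0% in Ctrl, 46.1% in B2D, 57.4% in Ctrl+FF and 62.4% in B2D+FF, the largest share in each group.

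**Figure D3:**
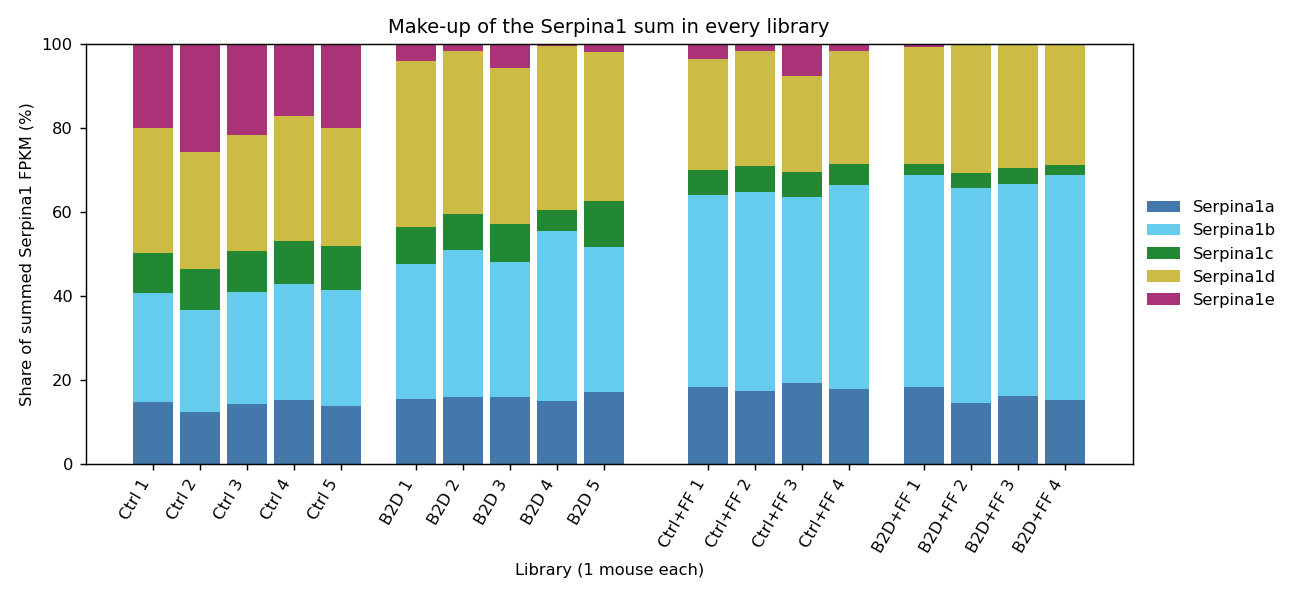
Share of each copy in the summed Serpina1 FPKM, 1 bar per library, grouped as Ctrl, B2D, Ctrl+FF and B2D+FF. The Serpina1e segment covers 17.1% to 25.8% in Ctrl and at most 5.68% in B2D, and is at most 0.634% in B2D+FF.

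Set side by side, with no test, the control-diet groups of the 2 tables differed in most members. The share of all reads taken by the 5 Serpina1 copies was 1.07% ± 0.0538 in Ctrl, 0.726% ± 0.120 in B2D, 0.535% ± 0.0372 in Ctrl+FF and 0.413% ± 0.0334 in B2D+FF. Serpina3k took 1.37% ± 0.250 of reads in Ctrl, 0.965% ± 0.176 in B2D, 0.484% ± 0.0744 in Ctrl+FF and 0.322% ± 0.0407 in B2D+FF. Serpina1e took 0.206% in Ctrl and 0.0166% in Ctrl+FF, and Serpina3n 0.0514% and 0.0440%. Diet time, drug and table all differ between these groups and cannot be told apart.

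Pooled over the groups, mice varied in the same direction for several members. After each group's mean was subtracted from log2(FPKM + 1), the 18 libraries gave Pearson correlations of 0.65 to 0.84 between all pairs of Serpina1 copies. Serpina1e and Serpina3k had 0.71. Serpina3m and Serpina3n had 0.52 with each other and -0.32 to 0.15 with the Serpina1 copies. These values share libraries and, for the Serpina1 copies, possibly reads. They are pooled, and a pair of copies need not go together within every group. In B2D+FF 1, Serpina1e and Serpina1a were the highest of their group, while Serpina1b, Serpina1c and Serpina1d were the lowest. B2D 4 was the lowest B2D mouse for 6 of the 10 members, Serpina1a, Serpina1c, Serpina1d, Serpina1e, Serpina3k and Serpina7, and the highest for Serpina3m and Serpina3n. Ctrl+FF 3 and B2D+FF 3 were each the highest of their group for 6 members, and Ctrl+FF 2 and B2D+FF 1 each the lowest for 6. By the same measure, over 4284 protein-coding genes with at least 5 FPKM in both tables, the genes most like Serpina1e were C8b (0.88), Mup7 (0.88) and C6 (0.87). C6 and C8b encode parts of the complement membrane attack complex, and Mup7 a major urinary protein. Mean FPKM of C8b was 129 in Ctrl, 61.4 in B2D, 24.6 in Ctrl+FF and 7.28 in B2D+FF. The genes most like Serpina3k were Ces3b (0.85), Cpb2 (0.84) and C8b (0.82), and those most like Serpina3n were Gys2 (0.83), Anxa6 (0.82) and Slco2b1 (0.82).

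**Figure D4:**
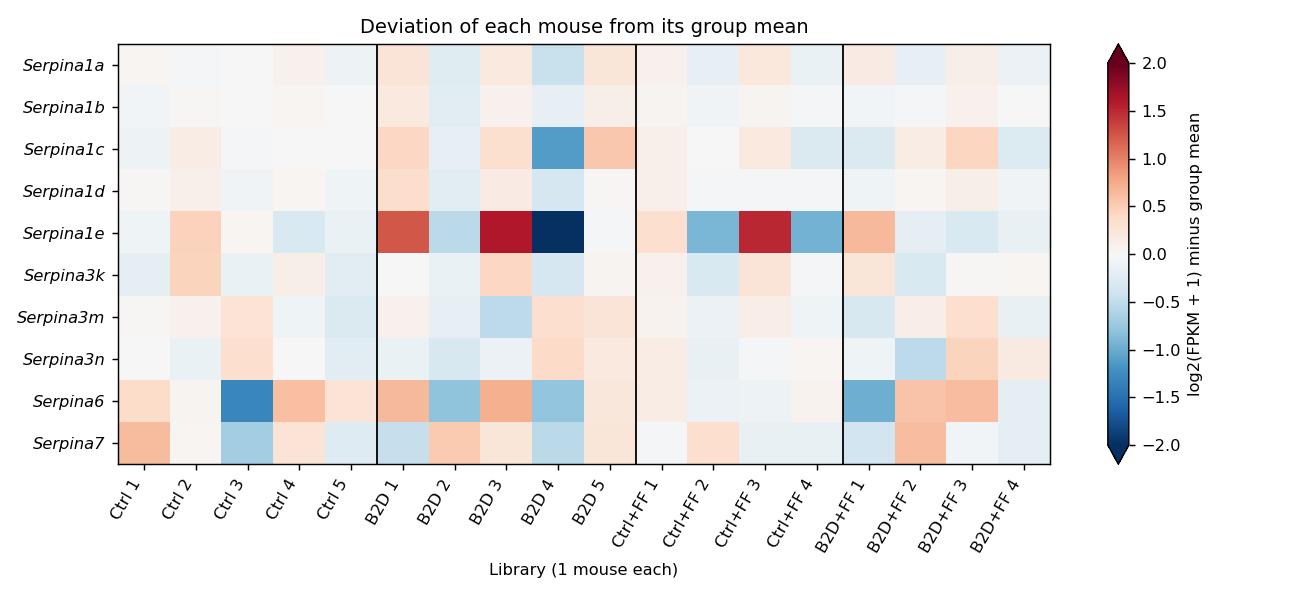
Deviation of each mouse from its group mean in log2(FPKM + 1), genes in rows and libraries in columns, with black lines between groups. The colour scale ends at 2 in either direction, and Serpina1e in B2D 4 lies beyond it at -2.25.

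The 5 Serpina1 copies are also alike before their starts. RefSeq promoter windows (GRCm38.p6) were at hand for Serpina1a to Serpina1e, Serpina3n and Serpina7, the last with 2 windows. Within the 250 bases before each start, a block of 188 to 190 bases could be aligned across all 5 copies, and 23 of its 191 columns differ. It is shown because it holds the bases in which the aligned copies differ. Whether these bases bear on the level of a copy or on its difference between diets was not tested. Capitals mark the columns that differ, all on the minus strand. The blocks lie at chr12:103863625-103863812 for Serpina1a, chr12:103738200-103738389 for Serpina1b, chr12:103904962-103905149 for Serpina1c, chr12:103773634-103773822 for Serpina1d and chr12:103956960-103957147 for Serpina1e.
Serpina1a: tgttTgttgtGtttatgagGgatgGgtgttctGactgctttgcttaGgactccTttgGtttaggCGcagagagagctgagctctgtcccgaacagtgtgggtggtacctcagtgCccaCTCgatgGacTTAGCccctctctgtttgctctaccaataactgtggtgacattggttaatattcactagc
Serpina1b: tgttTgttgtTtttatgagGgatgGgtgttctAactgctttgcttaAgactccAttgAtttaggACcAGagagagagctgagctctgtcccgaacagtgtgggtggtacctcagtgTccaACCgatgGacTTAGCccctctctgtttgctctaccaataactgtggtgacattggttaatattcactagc
Serpina1c: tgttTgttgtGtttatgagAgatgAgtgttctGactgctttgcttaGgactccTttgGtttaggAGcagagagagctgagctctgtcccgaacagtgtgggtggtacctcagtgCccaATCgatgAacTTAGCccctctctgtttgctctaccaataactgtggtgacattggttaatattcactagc
Serpina1d: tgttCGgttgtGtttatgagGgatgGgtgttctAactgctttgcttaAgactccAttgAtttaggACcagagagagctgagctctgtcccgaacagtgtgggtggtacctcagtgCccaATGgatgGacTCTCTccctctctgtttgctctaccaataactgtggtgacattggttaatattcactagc
Serpina1e: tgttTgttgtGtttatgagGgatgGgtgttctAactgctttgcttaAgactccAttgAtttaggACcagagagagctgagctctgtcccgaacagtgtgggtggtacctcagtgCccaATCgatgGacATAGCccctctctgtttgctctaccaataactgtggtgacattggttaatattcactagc

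The Serpina1e block differed from that of Serpina1b in 6 columns and from those of Serpina1a and Serpina1d in 8 each. Serpina1a and Serpina1c, the pair with most shared transcript sequence, differed in 5. On both strands of the 250 bases, the C/EBP letters TTGCNNAA were found once in Serpina1b, Serpina1d and Serpina1e and not in Serpina1a or Serpina1c, and they occurred in 9.56% of all 32851 RefSeq windows. The match began 161 bases before the start in Serpina1b, 149 in Serpina1d and 211 in Serpina1e, and it falls in the printed blocks. The glucocorticoid receptor letters ACANNNTGT were found in Serpina1a and Serpina3n and in 5.835% of all windows. The match in Serpina1a began 204 bases before the start, ahead of its aligned block, which begins at 193. In Serpina1e the block begins at 250, the edge of the scanned window. The bases ahead of the block were therefore not scanned in Serpina1e, and the copies cannot be compared there. The C/EBP letters were also in both windows of Serpina7. No member window held TTCNNNGAA (STAT, 7.02% of all windows), GTTAATNAT (HNF1, 0.737%), CAAAGTCCA (HNF4, 0.384%), TGTTTAC (FOXA, 3.17%) or AGGTCAAAG (DR1, 0.3805%). Only exact matches to these letters were counted. A site that departs from them is missed, so a window without a match may still hold a site.

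Few other serpins passed the test. Of 15 other clade A serpins listed, 5 were tested at 1 month, where 1.94% of all genes fell and 0.769% rose, and 2 fell with none rising. Serpina12, the adipokine vaspin, had 12.1 FPKM in Ctrl and 1.77 in B2D (log2 difference -2.21, SE 0.274, limma adjusted p = 0.00400), and the call held in all 17 other fits. Serpina10, which inhibits coagulation factor Xa, had 39.6 and 26.0 FPKM (-0.58, SE 0.132, limma adjusted p = 0.0400), and its call was lost without any one of Ctrl 1 to 4 or B2D 1 to 4. The median over the 5 was -0.48. With fenofibrate, 4 were tested and none passed (median -0.11), with Serpina10 at 25.1 and 20.9 FPKM and Serpina11 at 6.31 and 4.59 FPKM.

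Of 8 plasma serpins of other clades, 1 fell and none rose at 1 month. That was Serpine2, at 1.07 and 0.361 FPKM (log2 difference -0.62, limma adjusted p = 0.0232), and its call was lost without Ctrl 2, Ctrl 4, B2D 2 or B2D 4. It passed the filter only through its Ctrl values. With fenofibrate 0 of 7 passed, and Serpine2 was below the filter and not tested. Agt, the precursor of angiotensin, had 244 and 292 FPKM there, and Serpinf1 180 and 170 FPKM. The median difference was -0.24 at 1 month and -0.05 with fenofibrate.

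Among the 11 proteases and related genes that these serpins act on, 7 were tested in each pair. Coagulation factor XI, F11, fell at 1 month from 20.5 to 9.35 FPKM (-1.05, limma adjusted p = 0.00484), in all 17 other fits as well. With fenofibrate Klkb1, plasma kallikrein, fell from 18.6 to 13.6 FPKM (-0.42, limma adjusted p = 0.0403), a call lost without any of Ctrl+FF 1 to 4 or without B2D+FF 1, B2D+FF 2 or B2D+FF 4. Elane and Ctsg, the neutrophil proteases, were below the filter in every group. None of the 11 genes of steroid and thyroid hormone transport and response passed in either pair. Ttr, transthyretin, had 2769 and 2484 FPKM without fenofibrate and 1769 and 1405 FPKM with it, and Alb, albumin, 24777 and 25073 FPKM and 15529 and 12139 FPKM.

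Of 18 regulators of liver serpin transcription, 1 fell and 1 rose at 1 month. Ghr, the growth hormone receptor, fell from 48.5 to 28.9 FPKM (-0.73, limma adjusted p = 0.0265), a call lost without Ctrl 1, Ctrl 2, Ctrl 4, B2D 2 or B2D 4. Cux2, a repressor of male-biased liver genes, rose from 0.0417 to 1.82 FPKM (1.42, limma adjusted p = 0.000524). It passed the filter only through its B2D values. With fenofibrate 3 of 17 fell and 1 rose, and Cux2 was below the filter and not tested. Ghr fell from 37.7 to 23.4 FPKM (-0.67, limma adjusted p = 0.0182), but not without Ctrl+FF 1, Ctrl+FF 2 or Ctrl+FF 3. Cebpa, the gene of C/EBPα, fell from 95.7 to 64.3 FPKM (-0.57, limma adjusted p = 0.0205), but not without Ctrl+FF 1, Ctrl+FF 2, B2D+FF 1 or B2D+FF 4. Onecut1, the gene of HNF6, fell from 3.31 to 1.35 FPKM (-0.90, limma adjusted p = 0.0203), but not without Ctrl+FF 1, Ctrl+FF 3, B2D+FF 1 or B2D+FF 4. Cebpd, the gene of C/EBPδ, rose from 3.97 to 6.35 FPKM (0.55, limma adjusted p = 0.0465), but in only 5 of 15 other fits, and it was lost without any one library other than B2D+FF 4. Without Ctrl+FF 1 none of these 4 calls was kept.

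Of 22 acute phase genes, 21 were tested in each pair. At 1 month none fell and 2 rose, Apcs from 52.1 to 79.9 FPKM (limma adjusted p = 0.0397) and Lcn2 from 1.15 to 2.92 FPKM (limma adjusted p = 0.0477). The call of Apcs was lost without any one library other than Ctrl 2, and that of Lcn2 without any one other than B2D 3. With fenofibrate 3 fell and 1 rose. Saa4 fell from 55.5 to 18.7 FPKM (limma adjusted p = 0.00252), Saa2 from 4.52 to 0.461 FPKM (0.0103) and Saa1 from 8.22 to 1.99 FPKM (0.0387), while Orm3 rose from 7.40 to 16.5 FPKM (0.0105). The calls of Saa4, Saa2 and Orm3 held in all other fits, and that of Saa1 was lost without Ctrl+FF 1, Ctrl+FF 3, Ctrl+FF 4, B2D+FF 1, B2D+FF 2 or B2D+FF 3. Saa2 passed the filter only through its Ctrl+FF values. The medians were 0.03 and -0.01. None of 15 genes for the secretion and quality control of serpins passed in either pair. Calr, calreticulin, had 184 and 148 FPKM at 1 month and 88.1 and 77.8 FPKM with fenofibrate, Hspa5, the chaperone BiP, 147 and 152 FPKM at 1 month, and Mcfd2, a cargo receptor subunit, 73.1 and 82.5 FPKM with fenofibrate.

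Genes with a known sex difference in liver were among those called in both pairs. All 8 male-higher genes on the list fell at 1 month, with a median difference of -1.74. Mup20, a major urinary protein, had 5231 FPKM in Ctrl and 622 in B2D (-3.14, limma adjusted p = 0.000524), C8a, the complement partner of C8b, 113 and 47.2 FPKM (-1.34, 0.0174), and Hsd3b5, a steroid-metabolizing enzyme, 18.6 and 0.379 FPKM (-3.43, 0.00940). Cyp7b1, an oxysterol hydroxylase, fell from 72.1 to 23.5 FPKM (-1.71, 0.0230). Without Ctrl 2 alone, or without Ctrl 4 alone, 2 of the 8 calls were kept, those of Mup20 and Hsd3b5, and 5 were kept without Ctrl 1 or without B2D 4. Among single libraries, C8a and Cyp2d9 depended on Ctrl 2 and Ctrl 4, and Cyp7b1 also on B2D 4. Those of Slco1a1 (also without Ctrl 1 or B2D 2), Cyp4a12a (also without Ctrl 1, Ctrl 5, B2D 4 or B2D 5) and Elovl3 (also without Ctrl 1, Ctrl 5, B2D 2, B2D 4 or B2D 5) were lost more often. That of Hsd3b5 was lost with voom and with no filter, and this gene passed the filter only through its Ctrl values. Of the female-higher genes reported here, Cux2 rose as given above, Cyp2b9 rose from 0.355 to 55.4 FPKM (limma adjusted p = 0.00664) and Fmo2 from 6.60 to 23.6 FPKM (0.00972). The call of Cyp2b9 was lost with voom and that of Fmo2 with no filter. Cux2 and Cyp2b9 passed the filter only through their B2D values.

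With fenofibrate, 5 of 7 male-higher genes fell and none rose, with a median difference of -0.97. Hsd3b5 was below the filter and not tested. Mup20 had 1336 and 62.8 FPKM (-4.45, limma adjusted p = 0.00252), and C8a 26.6 and 8.73 FPKM (-1.52, 0.00746). These 2 calls held in all 15 other fits. Cyp7b1 fell from 36.7 to 17.4 FPKM (limma adjusted p = 0.0382) and Elovl3, a fatty acid elongase, from 182.5 to 81.6 FPKM (0.0421). The fifth was Cyp4a12a, a fatty acid hydroxylase, at 173 and 120 FPKM (0.0492), named here after its values were seen, whose call was kept in 6 of 15 other fits. Without Ctrl+FF 1, B2D+FF 1 or B2D+FF 3, 2 of the 5 calls were kept, those of Mup20 and C8a, and 3 were kept without Ctrl+FF 2, Ctrl+FF 3, B2D+FF 2 or B2D+FF 4. The call of Cyp4a12a was lost without any library other than Ctrl+FF 3, that of Cyp7b1 without Ctrl+FF 1, Ctrl+FF 3 or any B2D+FF mouse, and that of Elovl3 without Ctrl+FF 1, Ctrl+FF 2, Ctrl+FF 3, B2D+FF 1 or B2D+FF 3. Of 10 female-higher genes listed, 3 were tested. Fmo2 rose from 3.98 to 9.67 FPKM (0.00843) and Hao2 from 0.523 to 3.36 FPKM (0.0118). Cyp2b9, at 143 and 228 FPKM, did not pass (limma adjusted p = 0.0742). The part of these genes in the levels of the serpins was not tested.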

How the data were processed

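Liver mRNA of 18 mice was sequenced in 2 experiments. The authors used STAR with the mm10 genome and featureCounts, and each experiment has 1 deposited table of FPKM values. Tool versions, the annotation release, strandedness and the handling of reads that match several places are not given in the sources used here. The 2 tables were normalized separately by the authors, so tests stayed within a table. Multiplied by gene length, 100% of the values in each library fell on whole read numbers (tolerance 0.1 of a read), which gave the read numbers used here. The library size behind the FPKM values was not the number of reads on genes. It was 17069373 against 15320729 in B2D 2 and 20495388 against 21898502 in B2D+FF 4. The fit with voom used the same library sizes. Reads per library ranged from 15320729 to 21898502, and intervals cover the spread between mice only. No 2 libraries of a group agreed within sampling noise (lowest Pearson r 0.979, lowest chi-square per gene 12.5).

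The main test was limma (3.58.1, in R 4.3.3) with a trended prior on log2(FPKM + 1), for genes with a mean of at least 0.5 FPKM, with Benjamini-Hochberg adjustment over all genes, two-sided, and a threshold of 0.05. The pseudocount makes the differences of low genes smaller than their true size. The filter took the mean over both groups, so a gene could pass through a single group. Cux2, Cyp2b9, Hsd3b5 and Serpine2 without fenofibrate and Saa2 with it did so. The members, gene lists and tests were chosen with earlier results of these data known. All 10 members are reported. Of each list, up to 4 genes past the threshold per comparison are named, by smallest adjusted p, or the 2 with the highest mean where none passed. A gene of the female-higher list is not reported here. The likeness of genes is Pearson r over 18 libraries after subtraction of group means. Transcripts came from GENCODE M21 and promoters from RefSeq. They were aligned with MAFFT 7.526 and Biopython 1.88, and coding bases were compared in place of proteins. Promoter windows of Serpina3k, Serpina3m and Serpina6 were not used here. The alternatives were a pseudocount of 0.1, other filters (none, or a mean of 5 FPKM), upper quartile or quantile scaling, voom on the recovered reads, array weights and each library left out. The test was tried on simulated data first.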

Additional observations from a re-analysis of the deposited data

Results flagged for a closer look

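In 44 groups of values (11 quantities in 4 groups), 4 had a mouse that stood apart from the others of its group, by a gap to the nearest mouse that was large against the whole range. Chance flags about 1 in 20 groups. The Serpina1 sum was 6737 FPKM in Ctrl 2, where the next highest Ctrl mouse had 5988. Serpina1d was 760 FPKM in Ctrl+FF 1, where the next highest had 694. Serpina1e was 12.7 FPKM in B2D+FF 1, where the next highest had 6.82. The Serpina1 sum was 2205 FPKM in B2D+FF 3, where the next highest had 2012. All 4 are high values. The difference in the sum kept its direction when Ctrl 2 or B2D+FF 3 was left out.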

How the results depend on the processing

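No paired analysis was possible because the replicate numbers only name mice and mark no shared litter, batch or day. The difference in the Serpina1 sum stayed between -0.73 and -0.52 at 1 month and between -0.48 and -0.34 with fenofibrate. Of 10 members, 4 were called with fenofibrate, 2 to 5 over all 15 alternatives, 2 to 4 when 1 library was left out (2 without Ctrl+FF 1, Ctrl+FF 2, Ctrl+FF 3 or B2D+FF 4) and 2 with no filter. Leaving out a library gave 98 to 332 genes called at 1 month, against 313, with 153 without Ctrl 1, 109 without Ctrl 2, 98 without Ctrl 4, 161 without B2D 2 and 148 without B2D 4. With fenofibrate it gave 175 to 596, against 529, with 175 without Ctrl+FF 1, 188 without Ctrl+FF 2, 242 without Ctrl+FF 3, 302 without B2D+FF 1 and 298 without B2D+FF 4. With no filter 67 of 25041 and 272 of 24746 genes were called, and array weights gave 885 with fenofibrate. Of the named list genes, Cux2, Cyp2b9, F11, Mup20 and Serpina12 kept their call with no filter at 1 month, and C8a, Cebpa, Fmo2, Ghr, Hao2, Mup20, Orm3, Saa2 and Saa4 with fenofibrate. Rescaling to one upper quartile gave 366 lower and 223 higher calls with fenofibrate, against 263 and 266, and moved the median of all genes to -0.03. The differences of Serpina3m at 1 month and of Serpina3n with fenofibrate, neither of them called, changed sign when single libraries were left out, the first between -0.06 and 0.15 and the second between -0.16 and 0.16. Quantile normalization moved the differences at 1 month of Serpina1a from -0.48 to -0.23, Serpina1b from -0.26 to -0.13 and Serpina3n from -0.29 to -0.16, and with fenofibrate those of Serpina1b from -0.27 to -0.10 and Serpina3k from -0.60 to -0.31. With fenofibrate the differences of Serpina3m and Serpina7, neither called, ranged from 0.04 to 0.25 and from -0.34 to -0.01 over the alternatives. Counts of reads limit the low genes most: Serpina6 and Serpina1e rested on as few as 198 and 202 reads in B2D+FF.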
